A study of Mus musculus with 6 samples.

Results

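A set of 10 genes of the Wnt pathway was described in the RNA sequencing data of 6 mouse breast tumors. They are 6 ligands (*Wnt4*, *Wnt5a*, *Wnt5b*, *Wnt6*, *Wnt7b* and *Wnt10a*), the nuclear factor *Lef1*, the feedback gene *Axin2* and the secreted inhibitors *Sfrp1* and *Wif1*. They were picked by name, and all 10 were found by NCBI Gene identifier among the 18460 genes listed in at least 1 tumor. The 3 test tumors came from K14-TSLPtg;PyMTtg;Rag1KO mice and the 3 control tumors from PyMTtg;Rag1KO mice, all on the Balb/c background. Every mouse of both groups had received CD4+ T cells at 4 weeks of age, and tumors were taken at weeks 18 to 20, each from a separate mouse. The PyMT oncogene is driven in mammary epithelium by the MMTV promoter in both groups. The Rag1 deletion, also shared, leaves the hosts without T and B cells of their own, so that the transferred cells, sorted as naive CD4+ T cells from spleen, were the CD4+ T cells at hand. The K14 promoter directs *Tslp* to keratinocytes, and this transgene was what set the groups apart.

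Wnt proteins are secreted, lipid-modified signals. In the canonical branch a Wnt engages a Frizzled receptor with Lrp5 or Lrp6, β-catenin is stabilized, and it acts with TCF/LEF factors such as Lef1 on target genes that include *Axin2*. In the other branch ligands such as Wnt5a act through Ror2 and related receptors without β-catenin. In the mammary gland Wnt4 acts downstream of progesterone in ductal side branching, Wnt5a is known as a restraint on ductal growth, and Lef1 is needed early in the formation of the gland. Sfrp1 and Wif1 bind Wnt proteins outside the cell.

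Expected counts, the estimated reads per gene, summed to between 8373390 and 9449565 per tumor. They were rounded, scaled with edgeR's TMM factors to one common library size (CPM), and compared between groups with the quasi-likelihood test across 13706 genes. FPKM, which the authors also corrected for gene length, was used where levels of different genes were set side by side. Where 3 values are given for a group, they stand in the order of replicates 1, 2 and 3. The controls held 2, 2 and 3 counts of *Tslp* and the test tumors 12, 7 and 2, so that test replicate 3 did not exceed the controls. *Rag1* counts ran from 4 to 27, and gene totals do not separate the deleted part of that gene from the rest. Control replicate 2 stood apart from its group, since its log2 levels correlated across genes at 0.874 and 0.908 with the other controls and at 0.921, 0.927 and 0.935 with the test tumors (genes are not independent replicates). In the check of the tissue label all 9 luminal epithelial markers (such as *Epcam*, *Krt8* and *Krt18*) were detected in every tumor. Their summed level was 5572, 5671 and 5624 CPM in the test group and 2409, 4319 and 2140 CPM in the controls, with no overlap of the sums. Taken singly, 8 of the 9 were higher and 1 lower in the test group. Of the 9, 3 were higher without overlap, beside 6.12% of all tested genes.

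Among the members, *Wnt5a* and *Wif1* were lower in every test tumor than in every control tumor, and *Lef1* was high in 1 control tumor and nearly absent from 2 test tumors. *Wnt5a* averaged 29.8 ± 20.6 CPM in test and 78.3 ± 1.98 CPM in control tumors, *Wif1* 11.2 ± 12.5 and 59.2 ± 38.2 CPM, and *Lef1* 1.70 ± 2.76 and 38.7 ± 58.1 CPM (SD, n = 3 each). None of the 9 members that passed the filter on low counts reached an adjusted p of 0.05 in edgeR's test, and neither did any of the 13706 genes tested (0%). DESeq2 put 344 genes but no member past that threshold, and edgeR without control replicate 2 put 182 genes but no member. At an unadjusted p under 0.05 the same 3 members were counted, all of them lower in test tumors, beside 5.26% of all tested genes in that direction and 3.15% in the other. This count was 1, *Wnt5a* alone, without control replicate 1, without test replicate 1 or without test replicate 3. Over all genes, in either direction, 654 of 14056, 1124 of 14092 and 1085 of 14137 were counted in these fits. Without test replicate 2 it was 5 members, beside 1145 of 14033 genes. *Wnt5b*, *Wnt7b*, *Lef1* and *Wif1* were lower in that fit and *Wnt10a* was higher in test tumors. Without control replicate 2 it was 3 members (*Wnt5a*, *Lef1* and *Wif1*), beside 2020 of 14166 genes. The groups did not overlap for 2 of the 9 tested members, both lower in test tumors, beside 5.86% of all genes in that direction and 6.12% in the other. The median log2 fold change of the 9 was -0.44, beside 0.018 over all tested genes. Bulk tumor RNA does not tell fewer cells of a type from less RNA per cell, and this holds for every level below.

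**Figure D1:**
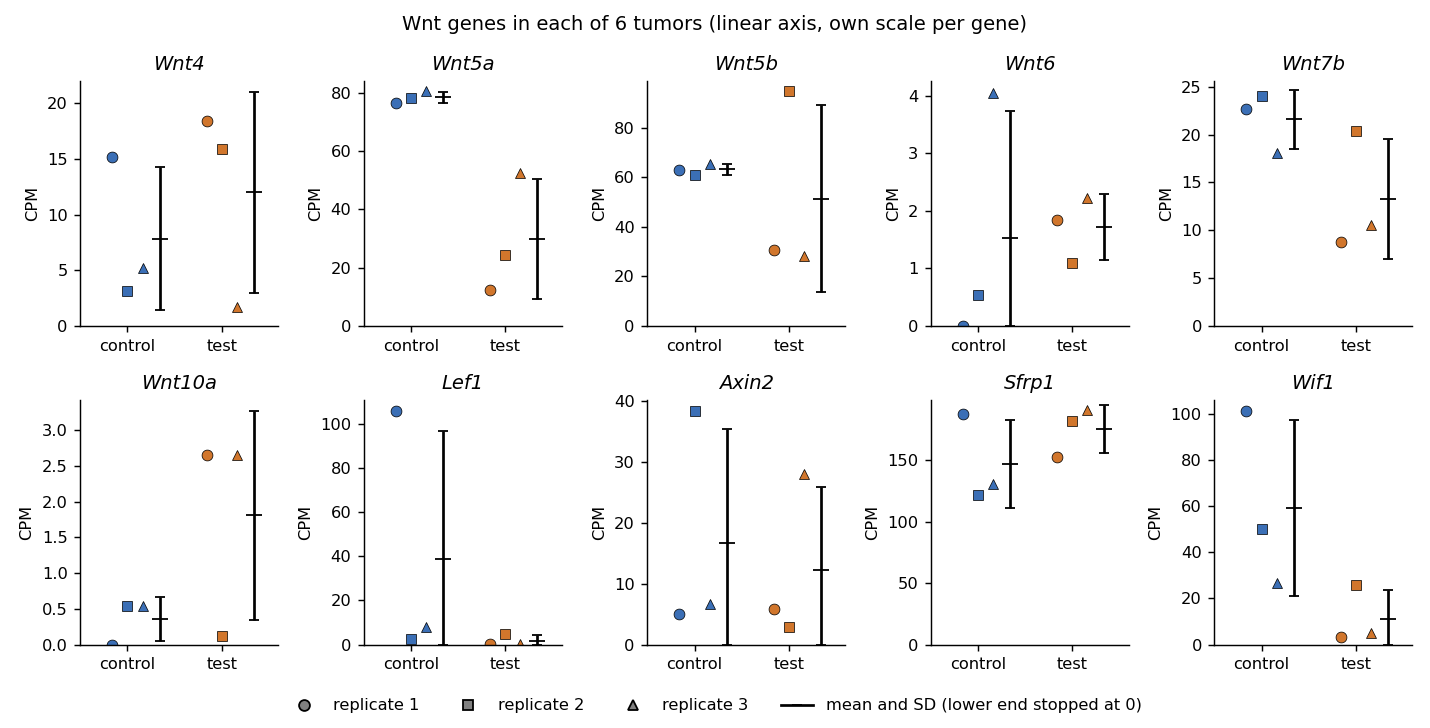
CPM of each Wnt gene (vertical axis, linear, own scale per panel) in the 3 control and 3 test tumors, with a marker shape per replicate and the mean and SD beside the points. *Wnt5a* sits between 76.5 and 80.4 CPM in the controls and between 12.5 and 52.6 CPM in the test tumors, while *Lef1* is carried by control replicate 1 at 106 CPM.

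*Wnt5a* (NCBI Gene 22418, GRCm38 chromosome 14, 28504543 to 28527448), the prototype ligand of the β-catenin-independent branch, was at 76.5, 78.1 and 80.4 CPM in the controls. In the test tumors it was at 12.5, 24.3 and 52.6 CPM. The controls lay within a narrow band, control replicate 2 included, and the test tumors were spread below it. The log2 fold change was -1.39 (SE 0.48, 95% interval -2.52 to -0.27, adjusted p = 0.491, edgeR). An exact two-sided permutation test over the 6 tumors gave p = 0.1, the smallest value that 3 against 3 allow. Leaving out 1 tumor at a time kept the log2 fold change between -2.08 and -1.02.

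*Wnt5b* (NCBI Gene 22419, chromosome 6, 119432531 to 119544824), the close paralog of *Wnt5a*, was at 63.1, 61.1 and 65.4 CPM in the controls. Test replicates 1 and 3 were at 30.8 and 28.2 CPM and test replicate 2 was at 94.8 CPM. The controls were again tightly grouped, and the test tumors fell on both sides of them. Its log2 fold change was -0.30 (SE 0.47, 95% interval -1.40 to 0.80, adjusted p = 0.877, edgeR). It was -1.10 without test replicate 2 and 0.0047 without test replicate 3. The 2 paralogs thus parted in test replicate 2, where *Wnt5b* was at its highest and *Wnt5a* at 24.3 CPM.

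*Wnt7b* (NCBI Gene 22422, chromosome 15, 85535437 to 85581821), a ligand made by mammary epithelium, was at 22.7, 24.0 and 18.1 CPM in the controls. It was at 8.76, 20.4 and 10.6 CPM in the test tumors. Test replicates 1 and 3 lay below every control, and test replicate 2 lay within the control range. Test minus control, the log2 fold change was -0.71 (SE 0.38, 95% interval -1.59 to 0.18, adjusted p = 0.685, edgeR) and -1.15 without test replicate 2.

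*Wnt4* (NCBI Gene 22417, chromosome 4, 137277635 to 137299501) was at 15.2, 3.14 and 5.22 CPM in the controls and at 18.4, 15.9 and 1.70 CPM in the test tumors. High and low tumors were found in both groups, with the lowest of all in test replicate 3. Between groups the log2 fold change was 0.61 (SE 0.88, 95% interval -1.43 to 2.66, adjusted p = 0.860, edgeR). It ran from 0.16 without test replicate 1 to 1.51 without control replicate 1.

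*Wnt6* and *Wnt10a* are neighbors on chromosome 1 (74754342 to 74785322 and 74792019 to 74804176), 6696 bases apart, and both were near the limit of detection. *Wnt6* held 0, 5 and 38 counts in the controls against 16, 9 and 21 in the test tumors. *Wnt10a* held 0, 5 and 5 counts in the controls against 23, 1 and 25. Both genes were thus undetected in control replicate 1, where a count of 0 allows up to 3 counts, or 0.324 CPM of that tumor's total (counting error only). *Wnt10a* was highest in test replicates 1 and 3, but test replicate 2 fell below 2 of the controls, and the gene did not pass the filter. *Wnt6* passed it with a log2 fold change of 0.17 (SE 1.18, adjusted p = 0.974, edgeR), and its sign turned when control replicate 1, control replicate 2 or test replicate 3 was left out (-0.41, -0.23 and -0.04).

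Per length, *Wnt5b* and *Wnt5a* made up most of the ligand transcript in the tumors. Over the 14 Wnt ligands listed in the files, the summed level was 54.1, 58.9 and 61.1 FPKM in the controls and 29.1, 60.2 and 33.0 FPKM in the test tumors. FPKM of all genes summed to 462579 to 507678 in the controls and to 492480, 628598 and 505116 in the test tumors. The ligand sums are not scaled to these totals, and the percentages below do not depend on them. *Wnt5b* gave 47.6% to 49.6% of it in the controls and 48.3%, 70.1% and 38.8% in the test tumors. *Wnt5a* gave 31.0% to 33.1% in the controls and 10.7%, 9.54% and 38.7% in the test tumors. The shares of these 2 ligands were thus close together in the controls and differed from tumor to tumor in the test group. *Wnt4* varied in both groups, with 6.78%, 1.43% and 2.29% in the controls and 17.0%, 6.5% and 1.37% in the test tumors, so that in test replicate 1 it exceeded *Wnt5a*. *Wnt7b* gave 8.97% to 12.4% in all tumors. The 8 listed ligands outside the members together held 4.65 to 6.35 CPM per tumor. *Wnt2*, a stromal ligand of the gland, held at most 12 counts in a tumor, and *Wnt10b*, an early marker of the mammary line, at most 4. *Wnt1*, *Wnt3*, *Wnt3a*, *Wnt8a* and *Wnt8b* were not analyzed here.

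**Figure D2:**
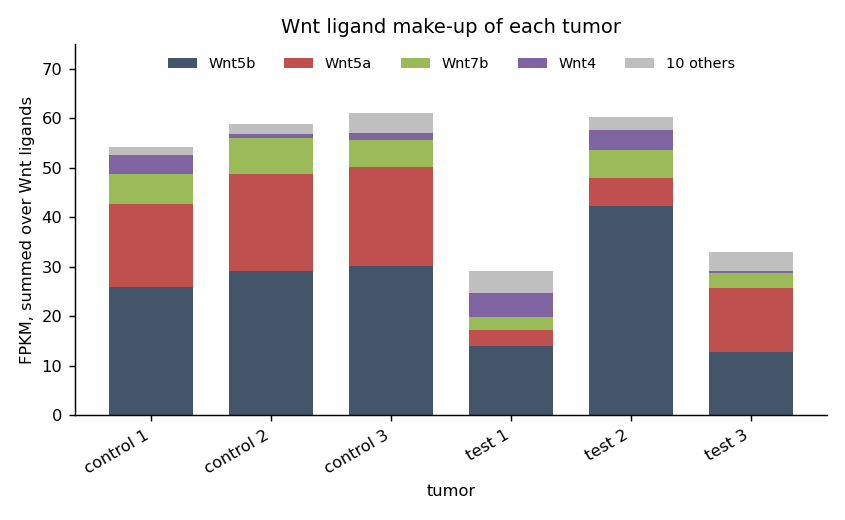
Summed FPKM of the 14 Wnt ligands (vertical axis) in each tumor, as stacked bars for *Wnt5b*, *Wnt5a*, *Wnt7b*, *Wnt4* and the other 10 together. The 3 control bars and test replicate 2 reach 54.1 to 61.1 FPKM and test replicates 1 and 3 reach 29.1 and 33.0 FPKM. The bars are not scaled to each tumor's FPKM total over all genes, which was highest in test replicate 2.

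*Lef1* (NCBI Gene 16842, chromosome 3, 131110297 to 131224357), a DNA-binding partner of β-catenin and itself a Wnt target, had the widest range of the members. It was at 106, 2.49 and 7.88 CPM in the controls, from 913, 23 and 74 counts. In the test tumors it was at 0.115, 4.88 and 0.106 CPM, from 1, 40 and 1 counts. The groups overlapped because test replicate 2 lay above control replicate 2, and test replicates 1 and 3 were under the floor of 3 counts. The log2 fold change was -4.52 (SE 1.74, 95% interval -8.56 to -0.48, adjusted p = 0.542, edgeR, and p = 0.2 in the exact two-sided permutation test). Its size depended on control replicate 1, without which it was -1.62, and on test replicate 2, without which it was -8.27. *Lef1* is also expressed in T cells. The 6 T cell markers listed (among them *Cd3e*, *Cd4* and *Lck*) summed to 5.08 to 7.78 CPM in the control and 4.5 to 9.03 CPM in the test tumors. In control replicate 1, the tumor with the most *Lef1*, they summed to 7.64 CPM. Which cells held the *Lef1* RNA was not tested. *Cd3g* and *Cd28* were at 0 in some tumors.

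*Axin2* (NCBI Gene 12006, chromosome 11, 108917828 to 108950783), a scaffold of the complex that degrades β-catenin and a widely used readout of canonical signaling, did not follow *Lef1*. It was at 4.98, 38.4 and 6.61 CPM in the controls and at 5.88, 2.81 and 28.0 CPM in the test tumors. Each group held 1 high tumor, control replicate 2 and test replicate 3, and in both of them *Lef1* was at 2.49 CPM or less. With these, the log2 fold change was -0.44 (SE 1.01, 95% interval -2.80 to 1.92, adjusted p = 0.918, edgeR), and without control replicate 2 it was 1.08. Of all tested genes, *Prom1*, which encodes the stem and luminal progenitor antigen prominin 1, was nearest to *Axin2* in its pattern. Centered log2 levels of the pair differed over the 6 tumors by a root mean square of 0.43, where *Axin2* itself had an SD of 1.42.

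*Wif1* (NCBI Gene 24117, chromosome 10, 121034004 to 121100642), which binds Wnt proteins through its WIF domain and is often silenced in carcinomas, was at 101, 49.9 and 26.5 CPM in the controls. It was at 3.11, 25.6 and 4.99 CPM in the test tumors. The groups did not overlap, although test replicate 2 and control replicate 3 were nearly level. The log2 fold change was -2.40 (SE 0.85, 95% interval -4.37 to -0.43, adjusted p = 0.497, edgeR), and p was 0.1, again the smallest possible, in the two-sided exact permutation test. Leaving out 1 tumor at a time gave log2 fold changes from -3.86 (without test replicate 2) to -1.77 (without control replicate 1). *Wif1* shared with *Lef1* its highest tumor, control replicate 1, and its lowest pair, test replicates 1 and 3.

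*Sfrp1* (NCBI Gene 20377, chromosome 8, 23411383 to 23449632), a secreted decoy with a Frizzled-like domain, was the steadiest of the members. It was at 188, 122 and 131 CPM in the controls and at 153, 182 and 191 CPM in the test tumors. The groups overlapped, and the highest tumor was 1.56 times the lowest. The log2 fold change was 0.25 (SE 0.26, 95% interval -0.35 to 0.86, adjusted p = 0.810, edgeR), so that a change of more than 1 in either direction lay outside the interval.

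**Figure D3:**
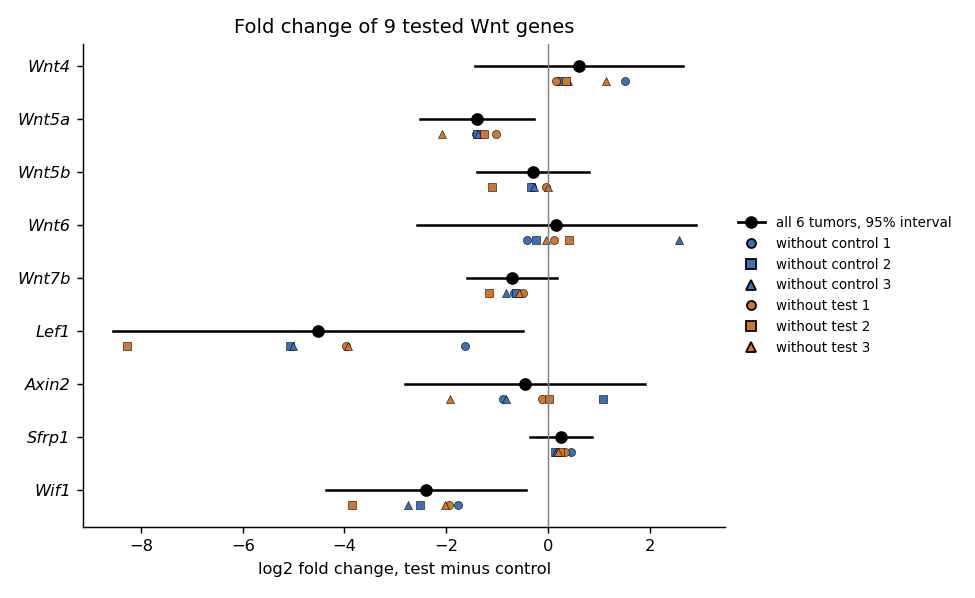
Log2 fold change, test minus control (horizontal axis), of the 9 members tested, with the 95% interval as a black line and, below it, the value with each tumor left out in turn. With each tumor left out, *Wnt5a*, *Wnt7b*, *Lef1* and *Wif1* stay below 0 and *Wnt4* and *Sfrp1* stay above 0. The 95% intervals of *Wnt7b*, *Wnt4* and *Sfrp1* include 0. *Axin2* moves from -0.44 to 1.08 without control replicate 2.

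On the FPKM scale over all 6 tumors, *Sfrp1* (36.1 ± 5.54) and *Wnt5b* (25.7 ± 11) had the highest means, followed by *Wif1* (15.3 ± 15.3), *Wnt5a* (13.0 ± 7.16), *Lef1* (5.94 ± 12.2) and *Wnt7b* (5.07 ± 1.82). *Axin2* (3.40 ± 3.57), *Wnt4* (2.54 ± 1.87), *Wnt6* (0.798 ± 0.718) and *Wnt10a* (0.558 ± 0.635) were lower (mean ± SD). No pair of neighbors in this order kept it in all 6 tumors. *Lef1* exceeded *Wnt7b*, the next in order, in 1 tumor of 6. The genes nearest in pattern to the other members were *Slpi* for *Lef1* (root mean square difference 0.59, SD of *Lef1* 2.78), *Scube1* for *Wif1* (0.46, SD 1.85), *Tacr3* for *Wnt5a* (0.29, SD 1.09) and *Itih2* for *Wnt4* (0.37, SD 1.31). They were *Sostdc1*, an antagonist of BMP and Wnt signals, for *Wnt6* (0.42, SD 1.12), *Haghl* for *Wnt5b* (0.11, SD 0.68), *Tefm* for *Wnt7b* (0.14, SD 0.59) and *Ddx24* for *Sfrp1* (0.07, SD 0.28). With 6 tumors and 13706 genes, near matches of this kind are a description.

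Promoter windows (250 bases before to 50 after a transcript start, RefSeq, GRCm38.p6) were at hand for 6 members, 11 windows in all. They were searched on both strands for the core bound by TCF/LEF factors, CTTTG followed by 2 bases that are each A or T. A match was found in 2 of the 11 windows, beside 16.9% of all 32851 windows of that length. Both lay at inner starts, 1 of the 4 of *Lef1* and 1 of the 3 of *Wnt5b*. The *Lef1* window is on strand +, and its match is in reverse, 147 bases before the start. The *Wnt5b* window is on strand -, and its match is forward, 71 bases before the start. Counts per gene do not tell which start was used. The windows of *Axin2*, *Wif1*, *Wnt4* and *Wnt6* held no match. The 2 windows with a match (in capitals) are shown because they are the members' matches to the factor that *Lef1* encodes, and the window of *Wif1* (strand +) because it was the inhibitor whose groups did not overlap. It has 63.0% G and C and 25 CpG pairs, beside a median of 52.7% G and C over all windows.
Lef1 inner start, chr3:131156044-131156343: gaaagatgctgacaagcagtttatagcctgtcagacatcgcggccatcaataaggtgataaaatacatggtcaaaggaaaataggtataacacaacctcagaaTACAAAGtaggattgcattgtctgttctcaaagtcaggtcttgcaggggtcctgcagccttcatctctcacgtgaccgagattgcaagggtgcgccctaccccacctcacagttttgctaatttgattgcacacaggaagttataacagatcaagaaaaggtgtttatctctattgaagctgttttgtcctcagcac
Wnt5b inner start, chr6:119449337-119449636: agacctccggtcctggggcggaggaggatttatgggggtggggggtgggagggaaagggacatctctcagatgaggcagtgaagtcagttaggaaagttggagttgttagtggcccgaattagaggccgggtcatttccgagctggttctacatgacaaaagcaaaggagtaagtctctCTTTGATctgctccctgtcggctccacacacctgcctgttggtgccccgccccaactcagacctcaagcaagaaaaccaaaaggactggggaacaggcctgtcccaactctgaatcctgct
Wif1, chr10:121033754-121034053: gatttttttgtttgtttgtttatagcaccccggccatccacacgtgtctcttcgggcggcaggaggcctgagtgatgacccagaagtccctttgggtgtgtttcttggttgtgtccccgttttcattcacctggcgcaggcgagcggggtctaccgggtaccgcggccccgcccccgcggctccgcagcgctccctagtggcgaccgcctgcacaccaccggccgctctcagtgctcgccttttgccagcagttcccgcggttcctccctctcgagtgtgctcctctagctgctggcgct

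The rest of the pathway was read from fixed lists of 86 further genes, of which 78 were listed in the files and 64 were tested. In the test tumors 48 of the 64 were lower and 16 higher, beside 6648 lower and 7058 higher among all 13706 tested genes. These numbers over all genes also stand beside the counts by list below. So do the shares at an unadjusted p under 0.05, 5.26% lower and 3.15% higher. The shares without overlap, 5.86% lower and 6.12% higher, stand beside them too. The median log2 fold change of the 64 was -0.27 beside 0.018 for all tested genes. None had an adjusted p of 0.05 or less in edgeR's test. DESeq2 put 6 of the 78 it fitted past that threshold (*Fzd9*, *Ror2*, *Lgr6*, *Nkd2*, *Apcdd1* and *Frzb*), beside 344 of 18383 genes. Without control replicate 2 edgeR put 3 of 66 past it (*Fzd9*, *Ror2* and *Apcdd1*), beside 182 of 14166 genes. At an unadjusted p under 0.05 there were 13 lower and 1 higher, together 21.9% beside 8.41% of all genes. The groups did not overlap for 14 lower and 4 higher genes, together 28.1% beside 12.0%. Without control replicate 2 the count at an unadjusted p under 0.05 was 14 of 66, with 11 lower and 3 higher. All genes under that p numbered 2020 of 14166 in this fit. Without test replicate 2 the counts were 8 of 64 and, over all genes, 1145 of 14033.

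Receptors were lower in test tumors for 18 of 20 tested genes. Of these, 5 had an unadjusted p under 0.05 and 5 were lower without overlap, while 1 receptor, *Procr*, was higher without overlap. It held 19, 18 and 17 counts in the test tumors and 14, 2 and 16 in the controls. Its log2 fold change was 0.8 (SE 0.73), and it was named after its values were seen. *Ror2*, the receptor tyrosine kinase through which Wnt5a acts, was at 36.6, 3.57 and 34.1 CPM in the controls and at 2.65, 3.05 and 2.12 CPM in the test tumors (log2 fold change -3.24, SE 0.80, adjusted p = 0.394, edgeR). Control replicate 2, which had as much *Wnt5a* as the other controls, was near the test tumors in *Ror2*. *Fzd9* showed the same low control, with 123, 10.9 and 137 CPM in the controls and 19.6, 10.1 and 4.77 CPM in the test tumors. *Lgr6*, an R-spondin receptor, was lower without overlap, at 46.6, 170 and 50.1 CPM in the controls and 13.4, 17.7 and 34.1 CPM in the test tumors (log2 fold change -2.03, SE 0.60, and -1.15 without control replicate 2). *Fzd1* was at 117, 30.7 and 51.4 CPM in the controls and 34.8, 23.1 and 29.3 CPM in the test group, and its log2 fold change of -1.19 became -0.50 without control replicate 1. *Fzd3*, lower without overlap, had a log2 fold change of -0.65 (SE 0.26). *Fzd7*, a Frizzled of mammary stem cells, was at 0.03 (SE 0.29), and *Lgr5*, at 0.461 to 7.57 CPM, was at -1.69 (SE 0.93).

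The feedback genes and common targets were lower for 10 of 13, 4 of them with an unadjusted p under 0.05. *Apcdd1*, a membrane inhibitor of Wnt signaling, was at 75.7, 7.14 and 25.6 CPM in the controls and at 1.84, 3.78 and 2.12 CPM in the test tumors (log2 fold change -3.80, SE 0.85, adjusted p = 0.394, edgeR). *Nkd2*, which antagonizes Dishevelled, was at 65.4 to 151 CPM in the controls and 7.84 to 44.7 CPM in the test group (log2 fold change -1.98, SE 0.61). *Znrf3*, a ligase that removes Frizzled receptors, and *Tnfrsf19* had log2 fold changes of -0.85 and -0.60, and neither overlapped between groups. Without control replicate 2 *Znrf3* was at -0.43, and without control replicate 1 *Apcdd1* was at -2.66. *Nkd2* was at -1.55 without test replicate 1 and at -2.62 without test replicate 3. The groups overlapped for the other 9 tested genes of the list, as they did for *Axin2*, and 3 of those 9 were higher in test tumors (*Cd44*, *Sox4* and *Sox9*, at 0.17, 0.43 and 0.46, named after their values were seen).

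Among genes of transduction and the TCF factors, 14 of 18 were lower, 2 of them with an unadjusted p under 0.05. Without overlap 3 were lower and 2 higher, the latter being *Tcf7l2* and *Gsk3a*. *Gsk3a*, named after its values were seen, had a log2 fold change of 0.07 (SE 0.21). *Tcf7*, the TCF factor close to *Lef1*, was at 30.2, 55.8 and 24.9 CPM in the controls and at 23.8, 14.3 and 20.3 CPM in the test tumors (log2 fold change -0.93, SE 0.38, adjusted p = 0.560, edgeR). Without control replicate 2 its log2 fold change was -0.50. *Tcf7l2*, another TCF factor, named after its values were seen, was higher in every test tumor (764, 475 and 452 counts) than in every control (325, 413 and 406 counts), with a log2 fold change of 0.63 (SE 0.29, adjusted p = 0.630, edgeR). *Dvl2*, a Dishevelled protein, had a log2 fold change of -0.72 (SE 0.26). *Ctnnb1*, the gene of β-catenin, was at 666 to 783 CPM in the controls and 474 to 856 CPM in the test tumors, so that the groups overlapped. Of 3 tested genes of Wnt secretion and the R-spondins all were lower, and none had an unadjusted p under 0.05. *Rspo1*, which potentiates Wnt signals, was at 0.865 to 2.88 CPM in the controls and 0.106 to 1.15 CPM in the test tumors.

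Of the secreted inhibitors and related genes, 6 of 8 tested had higher and 2 lower levels in the test group, and the median log2 fold change was 0.05. Of the 6, *Sostdc1*, *Ccn4*, *Dkk2* and *Dkk3* were at 0.01, 0.01, 0.09 and 0.15, each within its SE of 0 (the first 3 named after their values were seen). *Frzb*, a relative of *Sfrp1*, was at 3.47, 2.16 and 4.79 CPM in the controls and at 0.692, 0.122 and 0.424 CPM in the test tumors (log2 fold change -3.02, SE 0.71, adjusted p = 0.394, edgeR). *Kremen1*, a receptor of the Dickkopf inhibitors, had a log2 fold change of -1.21 (SE 0.40). *Ccn5* (formerly *Wisp2*), a secreted matrix-associated protein, was higher without overlap, at 31.5, 64.8 and 15.3 CPM in the test tumors and at 14.4, 15.0 and 4.79 CPM in the controls. Its log2 fold change was 1.71 (SE 0.62), and 1.03 without test replicate 2. *Sfrp2*, a stromal inhibitor, was at 10.5 to 33.6 CPM in the test and 1.74 to 13.5 CPM in the control tumors.

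**Figure D4:**
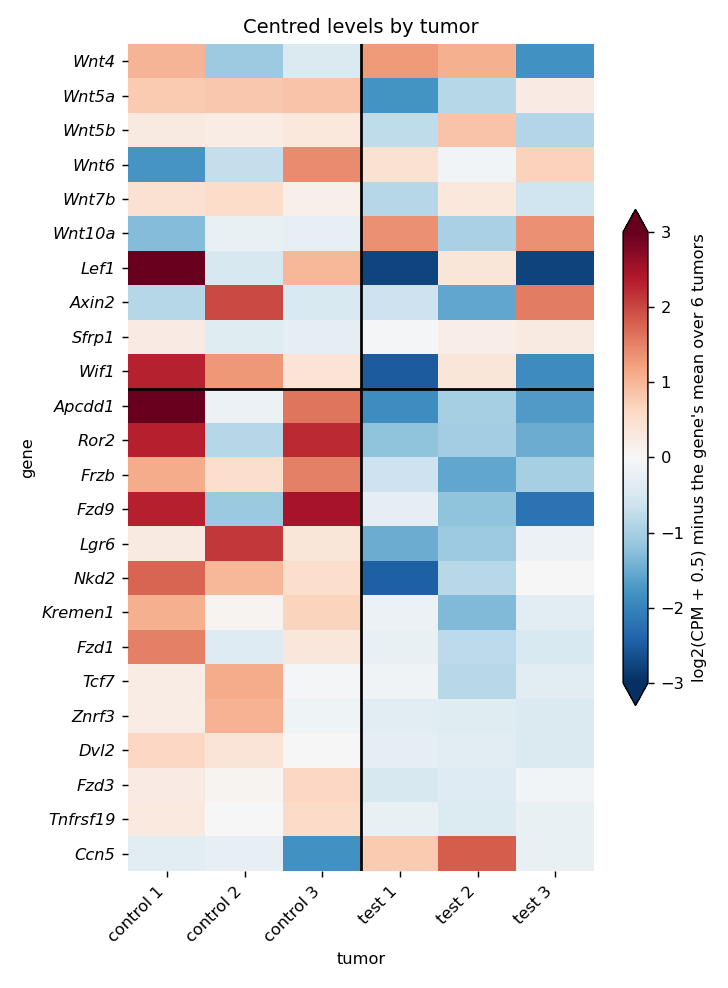
Log2(CPM + 0.5) minus each gene's mean over the 6 tumors (color, with values beyond 3 in either direction shown at the end of the scale) for the 10 members above the black line and, below it, the 14 other Wnt genes with an unadjusted p under 0.05. Control replicate 2 departs from the other controls for *Axin2*, *Ror2* and *Fzd9* but not for *Wnt5a*, and for *Lef1* control replicate 1 is the highest.

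Markers of other tissues varied between the tumors, and their part in these levels was not tested. The 8 fibroblast markers summed to 1030, 3038 and 2087 CPM in the controls and to 1191, 5123 and 2029 CPM in the test tumors. They were highest in test replicate 2, the test tumor with the most *Wnt5b*, *Wnt7b*, *Lef1* and *Wif1*, but lowest in control replicate 1, the tumor with the most *Lef1* and *Wif1* of all. The 7 basal and myoepithelial markers ran from 440 to 3084 CPM in the controls, with the highest value in control replicate 3, and from 480 to 1224 CPM in the test tumors. The 10 skeletal muscle markers ran from 7.14 to 229 CPM in the controls and from 129 to 1354 CPM in the test tumors, with *Ckm* and *Myl1* at 0 in some tumors. The 6 adipocyte markers ran from 54.9 to 117 CPM and from 51.5 to 737 CPM, with *Plin1* and *Lep* at 0 in some, and both of these lists peaked in test replicate 1. The 6 macrophage markers (286 to 615 CPM in control, 269 to 640 CPM in test tumors) and the 6 endothelial markers (93.9 to 135 and 109 to 139 CPM) covered like ranges. Of 8 skin and hair follicle markers 6 were listed, and they summed to 2.16 to 9.27 CPM in the controls and 2.77 to 13.9 CPM in the test tumors, with *Krt1*, *Krt25*, *Krt71* and *Dsg4* at 0 in some.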

How the data were processed

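The members and all gene lists were chosen with earlier results of these data known. RNA from 6 tumors was read on an Illumina HiSeq instrument at the Beijing Genomics Institute, and the authors aligned reads to mm10 with Bowtie. The submitters' processing notes also name BWA and RSEM, without a role. Versions and the annotation release are not given in the sources used here. For each tumor the authors deposited an expected count per gene, which is not normalized (79.0% to 80.1% whole numbers), the FPKM, normalized by the authors for length and depth, and the gene length. A gene not listed for a tumor was set to 0.

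Of 18460 NCBI Gene identifiers, 18400 matched RefSeq's GRCm38.p6 table and 60 did not. mm10 is the same assembly. Expected counts were rounded and tested in R 4.3.3 with edgeR 4.0.16 (filterByExpr, TMM, quasi-likelihood test of 3 test against 3 control tumors, no covariate, Benjamini-Hochberg adjustment over 13706 genes). The common biological coefficient of variation was 0.434. SE is the log2 fold change divided by the square root of F. Exact permutation tests used all 20 splits of the tumors on mean log2(CPM + 0.5). CPM uses TMM library sizes, and a floor of 3 counts covers counting error only. The edgeR and permutation p-values set the difference between groups against the spread between these tumors.

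Genes named are the 10 members, other listed Wnt genes with an unadjusted p under 0.05, 10 fixed others (*Tcf7*, *Sfrp2*, *Dkk3*, *Fzd7*, *Ror2*, *Lgr5*, *Rspo1*, *Wnt2*, *Wnt10b* and *Ctnnb1*), *Tslp*, *Rag1*, and the gene of nearest pattern to each tested member. The alternatives were RLE normalization, DESeq2 1.42.0, no filter, 10 counts in every tumor, limma-trend 3.58.1 with pseudocounts of 1 and 0.1 on FPKM (mean of at least 1 required, and for the pseudocount of 1 also without that filter), a pooled Poisson comparison, a block for the replicate number, and each tumor left out. The study names the Poisson method, NOISeq or EBSeq without saying which was used for these tumors. The fits were tested before use on simulated data with large changes planted in genes of higher counts. Small changes and genes with few counts were not covered by that check.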

Additional observations from a re-analysis of the deposited data

How the results depend on the processing

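No member had an adjusted p of 0.05 or less in any fit with edgeR, DESeq2 or limma-trend. The pooled Poisson comparison, which ignores the spread between tumors, put 8 members and 9583 of all genes past that threshold. At an unadjusted p under 0.05 it counted 8 members and 50 other Wnt genes, beside 9850 of 13706 genes. Over all genes, where the count was 0 in edgeR's test (1153 at an unadjusted p under 0.05), DESeq2 gave 344, limma-trend on log2(FPKM + 1) gave 1, and the fits without 1 tumor gave 0 to 182, the latter without control replicate 2. Without 1 tumor, 1 to 5 members and 8 to 14 other Wnt genes had an unadjusted p under 0.05 (all genes: 654 to 2020). Both counts reached their lower end without control replicate 1, test replicate 1 or test replicate 3 (members) and without test replicate 2 (other Wnt genes, whose alternatives were chosen after seeing the data). Of 131 alternative values of the tested members, 6 changed sign: *Wnt5b* (0.0047 without test replicate 3), *Wnt6* (-0.41, -0.23 and -0.04 without control replicate 1, control replicate 2 and test replicate 3) and *Axin2* (1.08 without control replicate 2 and 0.03 without test replicate 2). Among the other named genes *Dkk3* (-0.07 and -0.10 without control replicates 1 and 2) and *Fzd7* (-0.11, -0.10 and -0.04 without control replicate 1, control replicate 2 and test replicate 3) changed sign. Over the fits without 1 tumor the log2 fold change ran from -1.10 to 0.0047 for *Wnt5b*, -0.41 to 2.59 for *Wnt6*, -1.93 to 1.08 for *Axin2*, -0.10 to 0.75 for *Dkk3* and -0.11 to 0.34 for *Fzd7*. The cause was not tested. *Lef1* was at -1.98 on log2(FPKM + 1), a scale that understates changes of low genes. *Wnt10a* did not pass the filter with all 6 tumors and has no value to compare.

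The replicate numbers are shared by the groups, but the tumors come from different mice. Deviations of same-numbered tumors correlated at -0.0249, 0.121 and -0.137, and 2 of 6 tumors correlated best with their own number, so the numbers were not taken to pair the tumors. With the replicate number as a block, 2 members (*Wnt5a* and *Wif1*) and 16 other Wnt genes had an unadjusted p under 0.05. Over all 13706 genes 1056 did so, and 0 passed the adjusted threshold. Depth limits *Wnt6*, *Wnt10a* and the lowest *Lef1* values, which rest on few counts.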

Other observations

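The ratio of *Wnt5a* to *Wnt5b* on the FPKM scale, formed after the values were seen, was 0.652, 0.668 and 0.663 in the controls (replicates 1, 2 and 3 in order) and 0.222, 0.136 and 0.999 in the test tumors. The controls agreed closely in this ratio, control replicate 2 included, although that tumor stood apart from them over all genes. The test tumors lay on both sides of the control values.

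The ratio of the inhibitor *Wif1* to *Wnt5a* on the same scale, also formed afterward, was 2.51, 1.18 and 0.610 in the controls (replicates 1, 2 and 3 in order) and 0.463, 1.89 and 0.173 in the test tumors, so that the groups overlapped.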
